A study of Mus musculus with 12 samples.

Results

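The genes that copy DNA and the genes that divide the cell were followed through the reprogramming of a mouse leukemia into pluripotent stem cells. The set is a list of 42 cell cycle genes, named by symbol: 14 S phase genes, 22 mitotic genes and 6 genes of the G1 phase (the D and E cyclins and E2f1). A probe set assigned to a single gene measured 40 of the 42, among 22180 genes measured in all. All 14 S phase genes, 21 of the 22 mitotic genes and 5 of the 6 G1 genes were measured. The RNA level of Ccnb1 is not analysed here, though its promoter was searched, and the probe set of Ccne2 is shared with another gene.

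RNA was measured on 12 Affymetrix arrays, 3 in each of 4 groups. Established iPS cells, induced pluripotent stem cells called Notch-1 ips, were one group. GFP- colonies, labelled as reprogrammed, and GFP+ colonies, labelled as partially reprogrammed, were a pair of groups picked as colonies. All of these were derived from the leukemia cells, and leukemia cells from spleen in a NOTCH1 leukemia model were the fourth group. Every group carried the genotype R26rtTA;Col1a12lox-4F2A, a drug-inducible cassette of reprogramming factors together with its activator, so the leukemia arrays carried it too. The labels do not say what GFP marks. The leukemia arrays all carry the same leukemia number. Replicates are described as biological, but neither separate animals nor separate cultures are stated, and each p-value therefore reflects array-to-array spread that may be technical. All samples are bulk RNA, in which fewer dividing cells and less RNA per dividing cell cannot be told apart.

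A cell commits to division in G1, when D cyclins with Cdk4 or Cdk6, and then E cyclins with Cdk2, phosphorylate the retinoblastoma protein and release E2F factors. E2F targets then load and fire replication origins and supply nucleotides in S phase. Later, a second wave of genes controlled through the DREAM and MuvB complexes builds the spindle and splits the chromosomes. Mouse pluripotent cells are known for a short G1 phase and a high share of cells in S phase.

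The 3 iPS arrays correlated with each other at 0.995 over all genes and the leukemia arrays at 0.994, whereas pairs of GFP- arrays correlated at 0.887 to 0.970 and pairs of GFP+ arrays at 0.937 or above. The mean level of 15 measured pluripotency markers was 9.54 to 9.57 on the iPS arrays. It was 6.45, 9.24 and 9.59 on GFP- replicates 1, 2 and 3, and 8.16, 9.48 and 6.92 on GFP+ replicates 1, 2 and 3, against 5.62 to 5.86 on the leukemia arrays (log2). GFP- replicate 1, labelled as reprogrammed, therefore had pluripotency markers closer to leukemia than to iPS cells, and GFP+ replicate 3 stood low in the same list. These 2 arrays are called the low-pluripotency arrays, and counts are given with and without them. T lineage markers averaged 9.65 to 9.66 in leukemia and 5.45 to 6.33 on all other arrays.

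Words that E2F factors and the mitotic regulators are known to read were searched in the promoters. The 5 stretches shown are the 150 bases before the start of S phase genes and mitotic genes that differed between groups (RefSeq, GRCm38.p6, gene strand). Capitals mark an E2F word (TTTCCCGC, TTTCGCGC, TTTGCCGC or TTTGGCGC), a cell cycle homology region or CHR word (TTTGAA or TTCGAA), or a CCAAT box, on either strand.
Mcm6 (chr1:128359706-128359855, minus strand): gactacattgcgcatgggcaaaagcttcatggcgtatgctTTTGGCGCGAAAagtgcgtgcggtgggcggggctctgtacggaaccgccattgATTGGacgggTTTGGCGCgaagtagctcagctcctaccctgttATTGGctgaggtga
Rrm1 (chr7:102441545-102441694, plus strand): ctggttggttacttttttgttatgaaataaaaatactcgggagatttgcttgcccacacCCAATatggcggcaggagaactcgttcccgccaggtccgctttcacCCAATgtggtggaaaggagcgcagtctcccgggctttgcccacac
Cdc20 (chr4:118437344-118437493, minus strand): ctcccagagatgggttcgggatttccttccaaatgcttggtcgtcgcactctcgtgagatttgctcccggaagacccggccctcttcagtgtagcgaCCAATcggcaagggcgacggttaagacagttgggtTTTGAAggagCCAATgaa
Cdk1 (chr10:69352913-69353062, minus strand): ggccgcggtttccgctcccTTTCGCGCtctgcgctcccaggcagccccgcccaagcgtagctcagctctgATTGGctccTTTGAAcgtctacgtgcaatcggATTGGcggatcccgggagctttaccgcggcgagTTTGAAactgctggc
Kif11 (chr19:37376232-37376381, plus strand): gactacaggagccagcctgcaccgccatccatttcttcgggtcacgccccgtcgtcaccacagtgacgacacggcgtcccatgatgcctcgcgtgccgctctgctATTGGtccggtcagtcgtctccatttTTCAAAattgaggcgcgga

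In Mcm6, 2 E2F words overlap on opposite strands in the first capital run, and a further one lies nearer the start. Cdk1 holds an E2F word as well as CHR words and CCAAT boxes. Cdc20 and Kif11 each hold a CHR word beside a CCAAT box, and Rrm1 holds CCAAT boxes with neither of the other words.

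Over the windows that RefSeq gives (250 bases before to 50 after the start), 32 of the 42 genes could be searched. An E2F word was found in 5 of 11 S phase genes (45.5%: Mcm3, Mcm5, Mcm6, Mcm7 and Cdc6), in 1 of 18 mitotic genes (5.56%, Cdk1) and in 2.6% of the 27025 genes with a window. A CHR word was found in 13 of 18 mitotic genes (72.2%), 3 of 11 S phase genes (27.3%) and 21.7% of all genes. All 13 of those mitotic genes also held a CCAAT box, a pair of words that 8.61% of all genes held together. The 3 G1 genes with a window held neither an E2F nor a CHR word, and Mad2l1, Nusap1, Birc5 and Tyms held none of the words searched. The only windows given for E2f1, Cdc6 and Aurka lie inside the annotated gene, at a start downstream of its outermost one. The bases before the outermost start of these genes were therefore not searched. The CCAAT box alone was as frequent in S phase genes (81.8%) as in mitotic genes (83.3%), against 41.1% of all genes. E2F words overlapped each other in Mcm5 and Mcm6, and an E2F word overlapped a CCAAT box in Mcm7. In other lists of the same processes, 33.3% of 36 replication genes and 9.3% of 43 mitosis genes held an E2F word, and 16.7% and 62.8% of them held a CHR word. These shares describe letters in a window and do not show that a factor binds there.

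**Figure D1:**
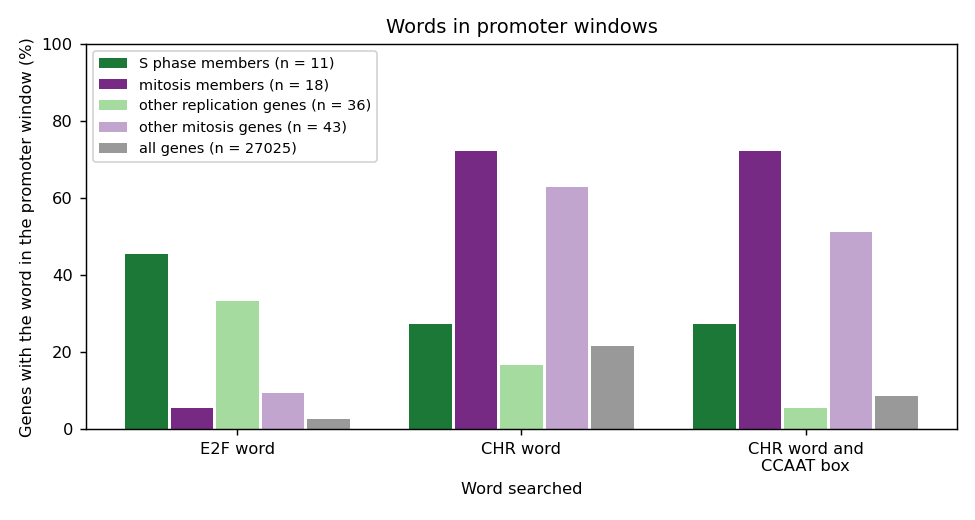
Share of genes (vertical axis, %) whose promoter window holds an E2F word, a CHR word, or a CHR word together with a CCAAT box, for S phase and mitotic members, further genes of both processes and all genes. The E2F word was found in 45.5% of S phase members and 5.56% of mitotic members, and the CHR word in 27.3% and 72.2%.

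In established iPS cells, 13 of 14 S phase genes lay below leukemia on average, all but Mcm2, and 14 of 21 mitotic genes lay above it. Cdc6, Rrm1, Mcm6 and Pcna fell, Cdc20 and Kif20a rose, and the proliferation marker Mki67 fell with the S phase genes. The largest rises were those of the D cyclins Ccnd1 and Ccnd2. Averaged over the 14 S phase genes, the iPS arrays lay 0.43, 0.46 and 0.49 below the leukemia mean, whereas over the 21 mitotic genes they lay 0.27, 0.24 and 0.21 above it (log2). Other marker lists moved with this comparison: the fibroblast list averaged 7.95 to 8.01 in iPS cells, against 6.23 to 6.34 in leukemia, and the epithelial list 7.80 to 7.81 in iPS cells, against 5.65 to 5.73 in leukemia. Their part in the members' levels was not tested.

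**Figure D2:**
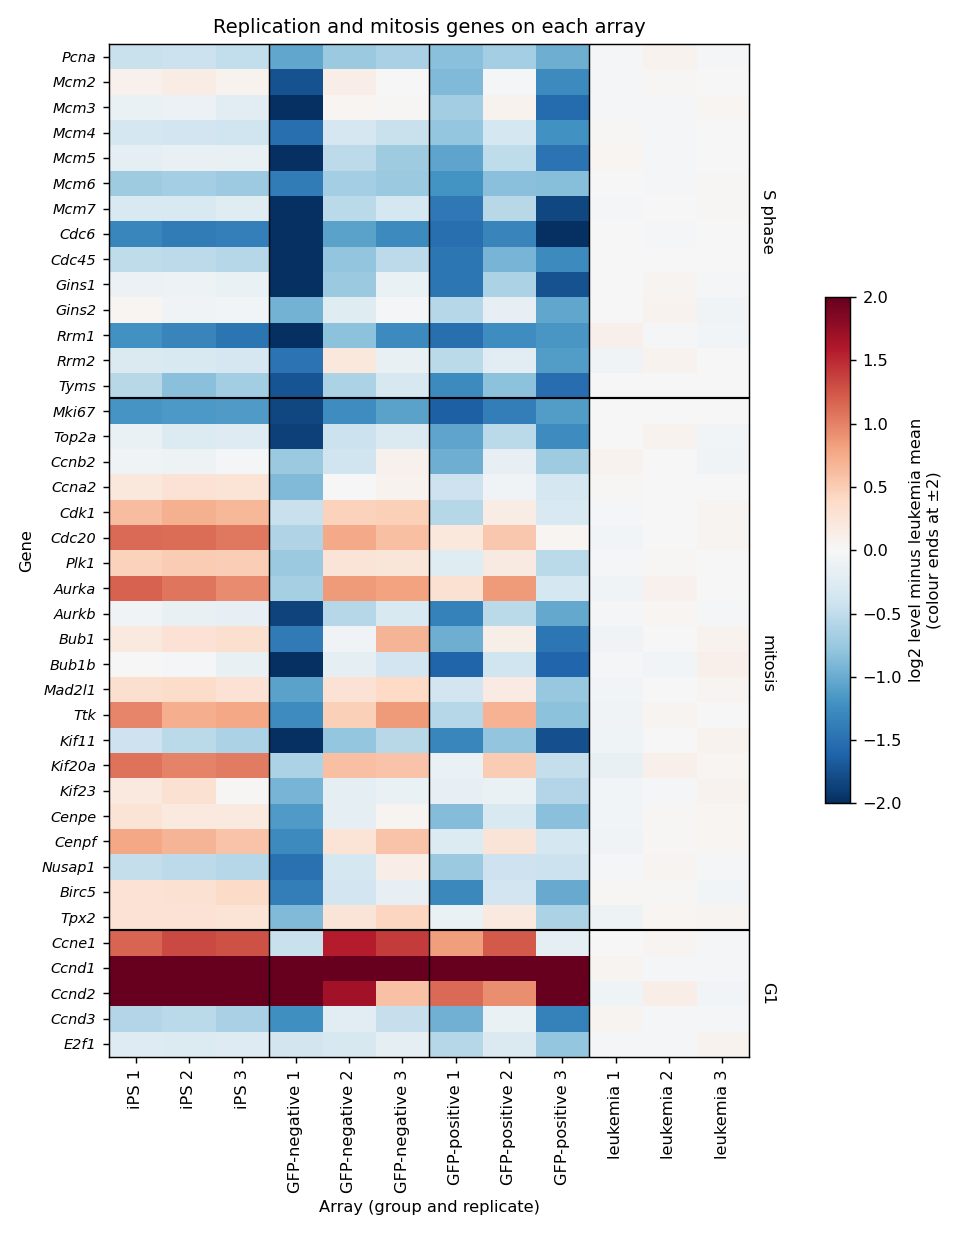
Level of each of the 40 measured genes on each of the 12 arrays, as the log2 difference from the gene's leukemia mean (colour, red above and blue below, ending at 2 in both directions). Columns run iPS, GFP-negative, GFP-positive and leukemia, and rows are grouped into S phase, mitosis and G1. The blue columns of GFP-negative replicate 1 and GFP-positive replicates 1 and 3 stand apart, and Ccnd1 and Ccnd2 are red on all 9 arrays outside leukemia.

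Cdc6 loads the replicative helicase onto origins. Its log2 level was 8.76, 8.67 and 8.69 on the iPS arrays, against 10.07, 10.05 and 10.07 on the leukemia arrays. Rrm1, the large subunit of the ribonucleotide reductase that makes deoxynucleotides, had 8.48, 8.38 and 8.24 in iPS cells, against 9.80, 9.65 and 9.64 in leukemia. In both genes every iPS array lay below every leukemia array, and the gap between the groups exceeded the range within either. The differences were -1.36 ± 0.37 for Cdc6 (2.57-fold lower; limma adjusted p = 0.0223) and -1.33 ± 0.27 for Rrm1 (2.51-fold lower; limma adjusted p = 0.00466), on the log2 scale, each with its standard error.

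Mcm6, one of the 6 helicase subunits, had log2 levels of 10.78, 10.82 and 10.77 in iPS cells, against 11.50, 11.46 and 11.53 in leukemia. Pcna, the sliding clamp of the replicative polymerases, had 11.83, 11.84 and 11.78 in iPS cells, against 12.24, 12.36 and 12.24 in leukemia. Neither gene's groups overlapped, with differences of -0.71 ± 0.18 for Mcm6 (limma adjusted p = 0.0143) and -0.46 ± 0.12 for Pcna (limma adjusted p = 0.018). The helicase subunits did not move as one: Mcm5 averaged 11.25 ± 0.02 in iPS cells and 11.41 ± 0.03 in leukemia (SD, n = 3 arrays each), and Mcm2 averaged 10.85 ± 0.04 in iPS cells and 10.75 ± 0.03 in leukemia, neither called; Mcm2 is named here after its values were seen. Rrm2, the small reductase subunit, averaged 8.85 ± 0.03 in iPS cells and 9.16 ± 0.07 in leukemia and was not called either (difference -0.31 ± 0.37, limma adjusted p = 0.618), although the fit of these 6 arrays alone called it lower (limma adjusted p = 0.00705).

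Among mitotic genes, Cdc20, the activator of the anaphase-promoting complex, had 11.29, 11.28 and 11.22 in iPS cells, against 10.11, 10.15 and 10.21 in leukemia (log2). Kif20a, a kinesin of the central spindle, had 9.46, 9.36 and 9.40 in iPS cells, against 8.22, 8.48 and 8.41 in leukemia. Every iPS array was above every leukemia array in both, by 1.11 ± 0.29 for Cdc20 (2.15-fold; limma adjusted p = 0.0181) and 1.04 ± 0.32 for Kif20a (2.05-fold; limma adjusted p = 0.0392). Mki67, a chromosome surface protein used as a marker of cycling cells, went the other way, with 10.41, 10.44 and 10.44 in iPS cells, against 11.59, 11.57 and 11.59 in leukemia. Its fall of 1.15 ± 0.18 (2.22-fold lower; limma adjusted p = 0.00106) was the largest among mitotic genes in either direction.

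Cdk1 and Top2a sat between these extremes. Cdk1, the kinase that starts mitosis, had 11.20, 11.30 and 11.25 in iPS cells, against 10.55, 10.58 and 10.64 in leukemia (difference 0.66 ± 0.24, limma adjusted p = 0.0737). Top2a, which untangles sister chromatids, had 10.26, 10.13 and 10.15 in iPS cells, against 10.39, 10.48 and 10.34 in leukemia (difference -0.23 ± 0.35, limma adjusted p = 0.718). Both genes had groups that did not overlap, but the spread shared by the 4 groups was set mainly by the colony arrays, and neither was called against it.

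In all, limma's fit of the 4 groups called 4 members higher and 5 lower in iPS cells. Of all genes, 24.3% were called, 12.4% higher and 11.9% lower, so the totals were near the background. By role, 0 S phase genes were higher and 4 lower, 2 mitotic genes were higher and 1 lower, and 2 G1 genes were higher and none lower. The median difference was -0.34 for S phase genes, 0.27 for mitotic genes and 1.25 for G1 genes, beside -0.03 over all genes. Fitting the 6 arrays of these 2 groups alone called 16 members higher and 15 lower, where 47.5% of all genes were called, 24.5% higher and 22.9% lower. That fit split the roles further: 0 S phase genes higher and 9 lower, and 13 mitotic genes higher and 4 lower. Among the 13 were Aurka, a spindle pole kinase (difference 1.06, limma adjusted p = 1.4e-05 in the 6-array fit), and Cdk1 (limma adjusted p = 7.36e-05 in that fit), while Kif11, the motor that separates spindle poles, was lower (difference -0.53, limma adjusted p = 0.000929 in that fit). Aurka and Kif11 are named here after their values were seen.

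Counted without any model, 12 of 14 S phase genes had all 3 iPS arrays below all leukemia arrays and 1 had them above, whereas 13 of 21 mitotic genes had them above and 5 below. Over all genes, 27.8% had the iPS arrays above and 28.7% below. In the 4-group fit, the calls of Mki67, Mcm6, Rrm1, Ccnd1 and Ccnd2 remained when any 1 of the 12 arrays was left out. The call of Cdc20 was lost without any 1 iPS array or without leukemia replicate 1 or 2 (limma adjusted p up to 0.0586), that of Cdc6 without any 1 iPS or leukemia array (up to 0.0666), that of Kif20a without any of these or GFP+ replicate 1 (up to 0.119), and that of Pcna without iPS replicate 1 or 3 or leukemia replicate 2 (up to 0.0704). The count of 9 calls was 5 without iPS replicate 1, iPS replicate 3 or leukemia replicate 2, and 17 without GFP- replicate 1. Over all genes, 5395 were called with every array and, in the same order, 3968, 3900, 3936 and 6865 without 1. Without both low-pluripotency arrays 10 members were called higher and 11 lower, where 36.4% of all genes were called, 18.9% higher and 17.4% lower.

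**Figure D3:**
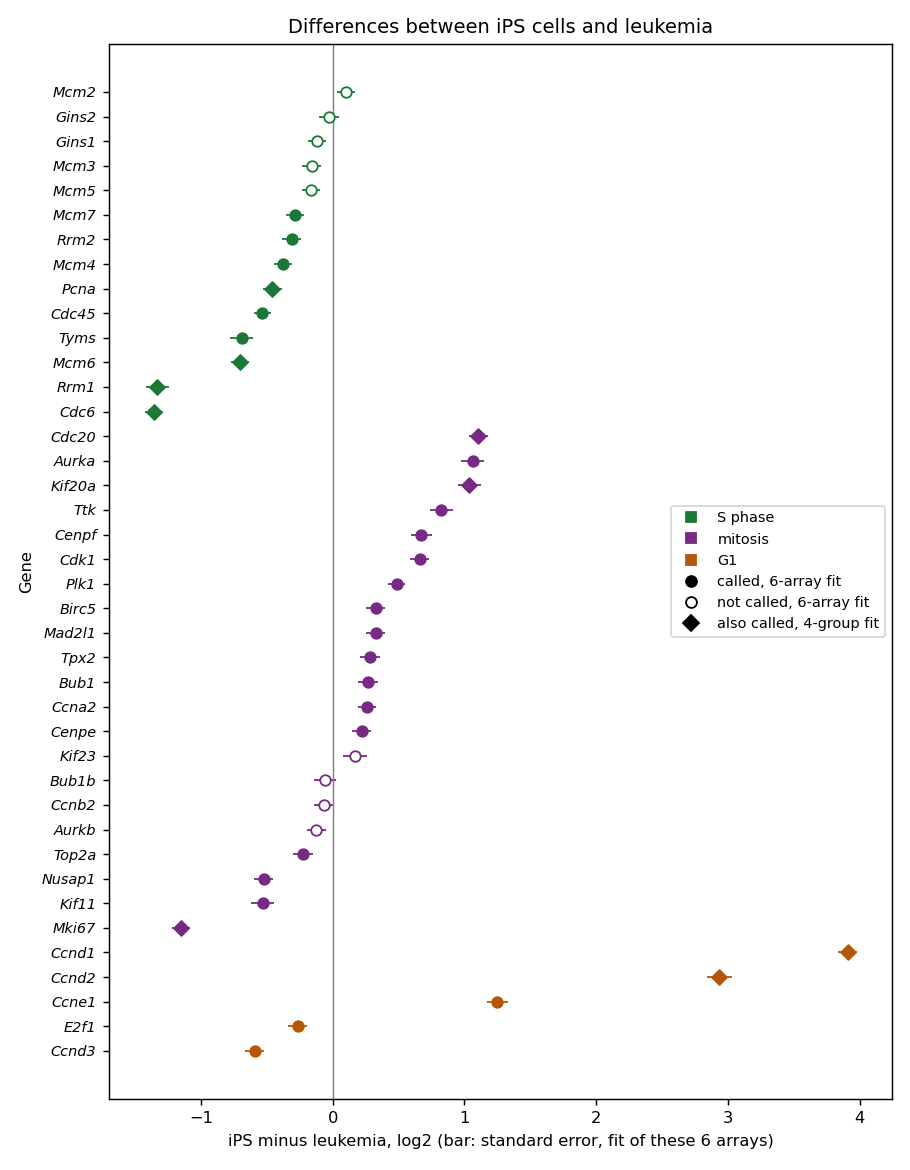
Difference in log2 level between iPS cells and leukemia (horizontal axis) for the 40 measured genes, sorted within S phase, mitosis and G1, with the standard error from limma's fit of these 6 arrays. Filled symbols were called in that fit and diamonds also in the 4-group fit. Of the S phase genes only Mcm2 lies right of 0, at 0.10, and of the mitotic genes Cdc20, Aurka and Kif20a lie past 1.

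Among the G1 genes, Ccnd1 and Ccnd2 showed the largest rises over leukemia of the set, whereas Ccnd3 and E2f1 averaged below leukemia. Ccnd1, the cyclin D1 gene, had 10.07, 10.16 and 10.13 in iPS cells. It had 10.17, 8.88 and 9.06 on GFP- replicates 1, 2 and 3, and 9.27, 9.27 and 11.07 on GFP+ replicates 1, 2 and 3, against 6.26, 6.19 and 6.19 in leukemia (log2). All 9 arrays outside leukemia lay above all leukemia arrays, and among colonies the highest levels were those of the 2 low-pluripotency arrays. The rises over leukemia were 3.91 ± 0.45 in iPS cells (limma adjusted p = 0.000129), 3.15 ± 0.45 in GFP- colonies (limma adjusted p = 0.000646) and 3.66 ± 0.45 in GFP+ colonies (limma adjusted p = 0.000246). The leukemia level lies near the array medians of 5.76 to 5.82, and whether it is above background was not tested, so no fold is given.

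Ccnd2, the cyclin D2 gene, had 9.80, 9.87 and 10.03 in iPS cells. It had 9.48, 8.65 and 7.55 on GFP- replicates 1, 2 and 3, and 8.10, 7.90 and 9.22 on GFP+ replicates 1, 2 and 3, against 6.87, 7.11 and 6.92 in leukemia. Here too every array outside leukemia was higher, and GFP- replicate 1 and GFP+ replicate 3 led their groups. Ccnd2 was 2.93 ± 0.44 higher in iPS cells than in leukemia (limma adjusted p = 0.000736), 1.59 ± 0.44 higher in GFP- colonies (limma adjusted p = 0.0262) and 1.44 ± 0.44 higher in GFP+ colonies (limma adjusted p = 0.0399). The colony calls of Ccnd2 were lost when single arrays were left out, without GFP- replicate 1 or 2 or any 1 leukemia array for GFP- colonies (adjusted p up to 0.081), and in 9 of 12 such fits for GFP+ colonies (up to 0.119).

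Ccnd3, the cyclin D3 gene, differed from leukemia on average in the direction opposite to Ccnd1 and Ccnd2. It averaged 8.56 ± 0.05 in iPS cells, 8.53 ± 0.53 in GFP- colonies and 8.34 ± 0.62 in GFP+ colonies, against 9.15 ± 0.05 in leukemia (SD, n = 3 arrays each). It was not called in the 4-group fit against leukemia (limma adjusted p = 0.198 in iPS cells, 0.179 in GFP- colonies and 0.0824 in GFP+ colonies). The fit of iPS cells and leukemia alone called it lower (difference -0.59, limma adjusted p = 0.000159).

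Ccne1, the cyclin E1 gene, had 9.75, 9.91 and 9.86 in iPS cells, 8.14, 10.16 and 9.99 on GFP- replicates 1, 2 and 3, and 9.42, 9.82 and 8.41 on GFP+ replicates 1, 2 and 3, against 8.58, 8.64 and 8.55 in leukemia. All iPS arrays exceeded leukemia, whereas GFP- replicate 1 and GFP+ replicate 3 lay below it, the reverse of their place in Ccnd1 and Ccnd2. The difference between iPS cells and leukemia was 1.25 ± 0.48 (limma adjusted p = 0.0898), and 1.97e-06 in the 6-array fit. Without the 2 low-pluripotency arrays, Ccne1 was called higher than leukemia in all 3 comparisons. The differences were 1.25 in iPS cells, 1.48 in GFP- colonies and 1.03 in GFP+ colonies (limma adjusted p = 1.92e-05, 1.77e-05 and 0.000209 in that order). That fit keeps 2 arrays in each colony group and drops the colony arrays in which Ccne1 lay below leukemia.

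E2f1, the transcription factor that turns on S phase genes, averaged 7.42 ± 0.01 in iPS cells, 7.40 ± 0.09 in GFP- colonies and 7.14 ± 0.24 in GFP+ colonies, against 7.69 ± 0.06 in leukemia. In the 4-group fit only the GFP+ difference was called (-0.55 ± 0.12, limma adjusted p = 0.00819), beside -0.27 in iPS cells (limma adjusted p = 0.146) and -0.29 in GFP- colonies (limma adjusted p = 0.12). The fit of iPS cells and leukemia alone also called E2f1 lower in iPS cells (limma adjusted p = 0.0131).

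**Figure D4:**
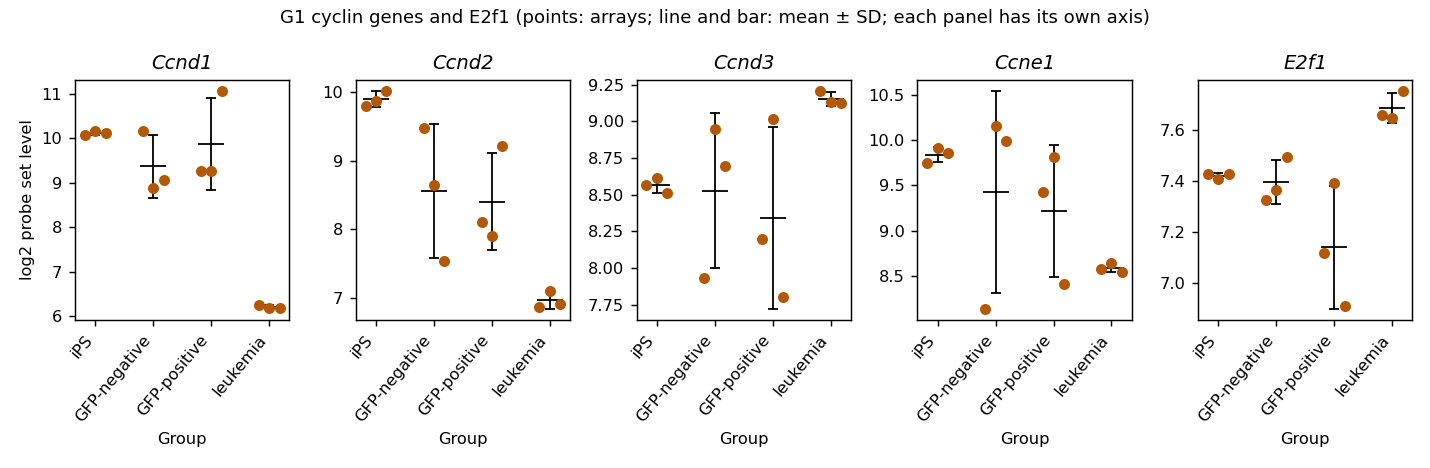
Log2 level of the 5 measured G1 genes (one panel each, with its own vertical axis) in iPS, GFP-negative, GFP-positive and leukemia, as points for arrays with the mean and SD. Ccnd1 and Ccnd2 are above leukemia on every other array, Ccnd3 and E2f1 have their highest means in leukemia, and Ccne1 splits the colony arrays around the leukemia level.

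In both kinds of colony the S phase genes lay below leukemia, and with larger medians than in iPS cells, a difference that was not tested as such. All 14 had negative differences in GFP- colonies and in GFP+ colonies, with medians of -0.92 and -0.99, beside -0.01 and -0.04 over all genes. Mitotic genes lay lower too, with medians of -0.28 in GFP- colonies and -0.33 in GFP+ colonies, but few were called, and without GFP- replicate 1 the GFP- median was 0.03. In GFP- colonies 10 of 14 S phase and 7 of 21 mitotic genes had all arrays below all leukemia arrays, where 20.9% of all genes did. In GFP+ colonies 13 of 14 S phase and 11 of 21 mitotic genes did, where 23.8% of all genes did. The comparisons share the leukemia arrays, so the same leukemia values stand in all of them.

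Mki67 had 9.77, 10.35 and 10.51 on GFP- replicates 1, 2 and 3, and 9.95, 10.19 and 10.46 on GFP+ replicates 1, 2 and 3, all below the 11.57 to 11.59 of leukemia. It fell by 1.37 ± 0.18 in GFP- colonies (limma adjusted p = 0.000395) and by 1.38 ± 0.18 in GFP+ colonies (limma adjusted p = 0.000385). Pcna had 11.23, 11.54 and 11.63 on GFP- replicates 1, 2 and 3, and 11.44, 11.61 and 11.31 on GFP+ replicates 1, 2 and 3. All of these were below the lowest leukemia array, with differences of -0.81 ± 0.12 in GFP- colonies (limma adjusted p = 0.000803) and -0.83 ± 0.12 in GFP+ colonies (limma adjusted p = 0.000709).

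Cdc6 had 7.28, 8.99 and 8.79 on GFP- replicates 1, 2 and 3, and 8.56, 8.75 and 7.96 on GFP+ replicates 1, 2 and 3. Rrm1 had 7.52, 8.87 and 8.42 on the GFP- arrays and 8.20, 8.45 and 8.53 on the GFP+ arrays. Both genes were lowest on GFP- replicate 1 and below every leukemia array throughout. Cdc6 fell by 1.71 ± 0.37 in GFP- colonies (3.27-fold lower; limma adjusted p = 0.0079) and by 1.64 ± 0.37 in GFP+ colonies (3.12-fold lower; limma adjusted p = 0.00964). Rrm1 fell by 1.43 ± 0.27 in GFP- colonies (limma adjusted p = 0.00364) and by 1.30 ± 0.27 in GFP+ colonies (limma adjusted p = 0.00597).

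Mcm5 had 9.38, 10.88 and 10.70 on GFP- replicates 1, 2 and 3, and 10.36, 10.91 and 9.94 on GFP+ replicates 1, 2 and 3, below the leukemia range of 11.38 to 11.45. Its difference was called in GFP- colonies (-1.09 ± 0.35, limma adjusted p = 0.0497) and narrowly not in GFP+ colonies (-1.01 ± 0.35, limma adjusted p = 0.0646), and the difference between these was not itself called. Tyms, which makes thymidylate, was called lower in GFP+ colonies (-1.21 ± 0.31, limma adjusted p = 0.0169), beside -0.89 ± 0.31 in GFP- colonies (limma adjusted p = 0.0654). Rrm2 was -0.47 ± 0.37 against leukemia in GFP- colonies and -0.63 ± 0.37 in GFP+ colonies (limma adjusted p = 0.412 and 0.271 in that order), with GFP- replicate 2, at 9.37, above all leukemia arrays.

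The mitotic genes differed among themselves in how they stood against leukemia. Cdk1 had 10.14, 11.05 and 11.06 on GFP- replicates 1, 2 and 3, and 10.01, 10.73 and 10.29 on GFP+ replicates 1, 2 and 3, on both sides of the leukemia range of 10.55 to 10.64. Its difference from leukemia was 0.16 ± 0.24 in GFP- colonies and -0.25 ± 0.24 in GFP+ colonies (limma adjusted p = 0.696 and 0.536 in that order). Top2a had 8.54, 9.98 and 10.12 on the GFP- arrays and 9.35, 9.87 and 9.14 on the GFP+ arrays, all below leukemia, and was called in neither (limma adjusted p = 0.114 and 0.0798). Kif11 was called lower in GFP+ colonies (-1.29 ± 0.40, limma adjusted p = 0.044), with levels of 8.55 to 9.53 on the GFP+ arrays, against 10.23 to 10.39 in leukemia. In GFP- colonies its difference was -1.23 ± 0.40 (limma adjusted p = 0.0537), with all GFP- arrays below leukemia.

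For GFP- colonies, limma called 2 members higher and 7 lower than leukemia, where 21% of all genes were called, 9.02% higher and 12% lower. The 7 were 6 S phase genes and Mki67, and the 2 were Ccnd1 and Ccnd2. For GFP+ colonies, 2 members were called higher and 9 lower, where 21.9% of all genes were called, 9.6% higher and 12.3% lower. The 9 were 6 S phase genes, Mki67, Kif11 and E2f1. In each comparison 6 of 14 S phase genes were called lower and none higher, whereas 1 of 21 mitotic genes was called lower in GFP- colonies and 2 of 21 in GFP+ colonies. With the scaling changed to cyclic loess, higher calls made up 53.4% of calls over all genes in GFP- colonies, against 43% as deposited, and 57.1% in GFP+ colonies, against 43.9%, while the split of the members was 2 higher and 7 lower in GFP- colonies and 2 higher and 8 lower in GFP+ colonies.

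The calls of Mki67, Pcna, Mcm6, Cdc6, Rrm1 and Ccnd1 remained in both comparisons when any 1 array was left out, and so did that of E2f1 in GFP+ colonies. Calls close to the threshold did not: Mcm5 and Cdc45 in GFP- colonies were lost in 8 and 9 of 12 such fits (limma adjusted p up to 0.126 and 0.113), and Kif11, Cdc45 and Tyms in GFP+ colonies in 8, 10 and 5 of 12 (up to 0.128, 0.14 and 0.0543). The GFP- count of 9 was 15 without GFP- replicate 3, where 4686 of all genes were called, against 4655 with every array. The GFP+ count of 11 was 7 without GFP+ replicate 1, GFP+ replicate 3 or any 1 leukemia array, 19 without GFP+ replicate 2 and 26 without GFP- replicate 1. For GFP+ colonies, calls over all genes were 4848 with every array and, in the same order, 3774, 4751, 3407 to 3438, 4772 and 6519. The fit of the 2 groups alone called 1 member higher and 4 lower in GFP- colonies, where 14.9% of all genes were called, 6.15% higher and 8.73% lower. That fit lost the GFP- calls of Cdc6 (limma adjusted p = 0.053), Ccnd2 (0.0736), Mcm5 (0.129) and Cdc45 (0.159). In GFP+ colonies it called 2 higher and 19 lower, where 22.7% of all genes were called, 10.6% higher and 12.1% lower. Without the 2 low-pluripotency arrays, 6 members were called higher and 10 lower in GFP- colonies, where 32.9% of all genes were called, 16.1% higher and 16.8% lower. In GFP+ colonies 5 were called higher and 19 lower, where 32.6% of all genes were called, 15.7% higher and 16.9% lower. Without those arrays the median of mitotic genes against leukemia was 0.03 in GFP- colonies and -0.24 in GFP+ colonies, and that of S phase genes was -0.46 in GFP- colonies and -0.88 in GFP+ colonies.

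**Figure D5:**
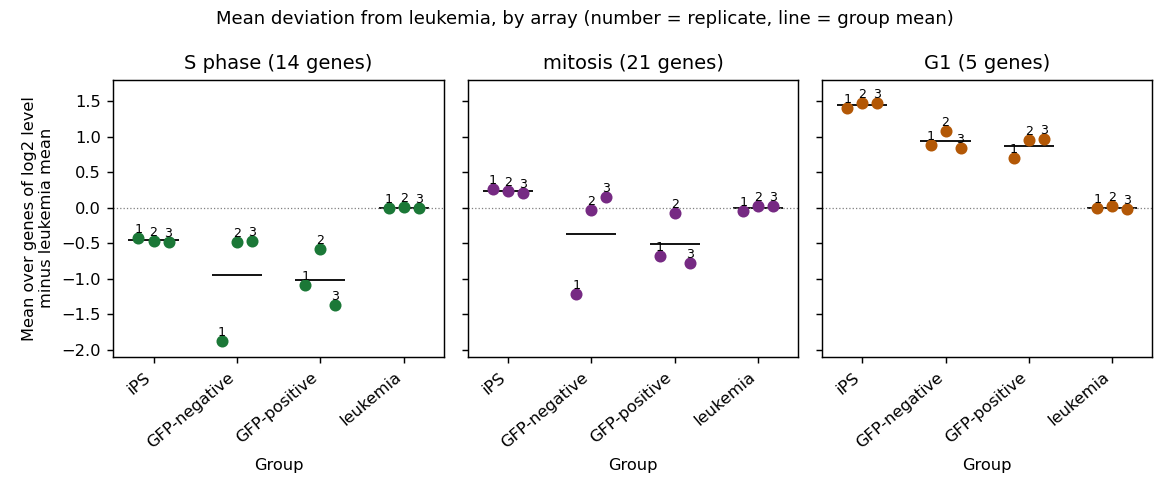
Mean over the genes of each role of the log2 difference from the leukemia mean (vertical axis), for each array of iPS, GFP-negative, GFP-positive and leukemia; numbers mark replicates and lines group means. S phase means lie below 0 on all 9 arrays outside leukemia, mitotic means lie above 0 in iPS cells and from -1.22 to 0.15 in colonies, and G1 means lie from 0.70 to 1.47 outside leukemia.

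Established iPS cells lay above GFP+ colonies in nearly all members. All 21 mitotic genes had positive differences, with a median of 0.79, and 13 of 14 S phase genes did, with a median of 0.54, beside 0.01 over all genes. Birc5, a subunit of the chromosomal passenger complex, had 10.22, 10.22 and 10.31 in iPS cells, against 8.64, 9.53 and 8.92 on GFP+ replicates 1, 2 and 3. It was 1.22 ± 0.29 higher in iPS cells (2.33-fold; limma adjusted p = 0.0287), and Cdk1 was 0.91 ± 0.24 higher (1.87-fold; limma adjusted p = 0.0404), with no overlap between the groups in either gene.

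These 2 were the only members called, where 10.4% of all genes were called, 6.15% higher and 4.23% lower. In 29 of 40 members all iPS arrays lay above all GFP+ arrays and in 0 below, where 21% of all genes had them above and 17.1% below. The 2-group fit called 11 members higher and 0 lower, where it called 12.7% of all genes, 6.54% higher and 6.2% lower. Of the genes followed throughout, Mki67 differed by 0.23 (95% interval -0.18 to 0.64), Top2a by 0.73 (-0.05 to 1.51), Pcna by 0.37 (0.10 to 0.64), Mcm5 by 0.85 (0.07 to 1.62), Rrm2 by 0.31 (-0.50 to 1.13) and E2f1 by 0.28 (0.01 to 0.55). Ccnd2 differed by 1.49 (0.51 to 2.47; limma adjusted p = 0.0565), Ccnd1 by 0.25 (-0.76 to 1.26), Ccnd3 by 0.22 (-0.45 to 0.89) and Ccne1 by 0.62 (-0.45 to 1.70). None of these 10 was called, and several intervals reach differences past 1 unit. The call of Cdk1 was lost without GFP+ replicate 1 or 3 or any 1 iPS or leukemia array (limma adjusted p up to 0.131), and that of Birc5 without GFP+ replicate 1 or 3 or any 1 iPS array (up to 0.098). With every array 2304 of all genes were called. The count of 2 was 0 without GFP+ replicate 1 or any 1 iPS array, where 900 and 597 to 624 of all genes were called. It was 1 without GFP+ replicate 3 or any 1 leukemia array, where 1189 and 1450 to 1476 were. It was 7 without GFP+ replicate 2, 5 without GFP- replicate 3 and 23 without GFP- replicate 1, where 3422, 3288 and 4808 were. Without both low-pluripotency arrays 19 members were called, where 20.4% of all genes were, 11.2% higher and 9.29% lower. All of these member calls were higher in iPS cells.

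Against GFP- colonies the size of the differences changed with GFP- replicate 1. All 40 members were higher in iPS cells on average, with medians of 0.64 for mitotic and 0.38 for S phase genes, beside -0.02 over all genes, and limma called 0. At an unadjusted p under 0.05, 11 members passed (27.5%, beside 19.7% of all genes), 8 of them mitotic, and the fit of these 2 groups alone also called 0, where it called 0.857% of all genes, 0.649% higher and 0.207% lower. In the 4-group fit 4.25% of all genes were called, 2.94% higher and 1.32% lower. In 17 members all iPS arrays lay above all GFP- arrays and in 0 below, where 15.3% and 11.8% of all genes did. Leaving out GFP- replicate 1 alone gave a mitotic median of 0.23 and 1 call, where 1078 of all genes were called. Leaving out GFP- replicate 3 also gave 1 call, where 1755 of all genes were called. Without the 2 low-pluripotency arrays the medians were 0.23 for mitotic and 0.02 for S phase genes, and Ccnd1 (limma adjusted p = 0.000226) and Ccnd2 (limma adjusted p = 0.00304) were the only members called, both higher, where 10% of all genes were called, 5.85% higher and 4.17% lower. With all arrays, Ccnd1 differed by 0.75 (95% interval -0.25 to 1.76) and Ccnd2 by 1.34 (0.36 to 2.31; adjusted p = 0.124), Cdk1 by 0.50 (-0.04 to 1.03), Mki67 by 0.22 (-0.19 to 0.63) and Mcm5 by 0.93 (0.15 to 1.70). Top2a differed by 0.64 (-0.14 to 1.41), Pcna by 0.35 (0.08 to 0.62), Rrm2 by 0.16 (-0.65 to 0.97), Ccne1 by 0.41 (-0.66 to 1.49), Ccnd3 by 0.04 (-0.63 to 0.71) and E2f1 by 0.03 (-0.24 to 0.29).

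Between GFP- and GFP+ colonies no member was called, and 0% of all genes were. No member had an unadjusted p under 0.05, where 6.37% of all genes did, and the fit of these 2 groups alone called 0 as well. The medians were 0.04 for S phase, 0.12 for mitotic and 0.19 for G1 genes, beside 0.03 over all genes. Leaving out single arrays turned the first 2 to -0.15 and -0.14 (GFP- replicate 3), -0.16 and -0.06 (GFP- replicate 2), or -0.08 and -0.01 (GFP+ replicate 3), and the G1 median to -0.03 (GFP- replicate 2). The S phase median was -0.03 under cyclic loess. Without both low-pluripotency arrays they were 0.33 for S phase and 0.43 for mitotic genes. No member separated the groups array by array, as 4.31% of all genes did upward and 2.23% downward. The intervals were wide: Cdk1 differed by 0.41 (-0.13 to 0.94), Mki67 by 0.01 (-0.40 to 0.42), Top2a by 0.09 (-0.69 to 0.87), Pcna by 0.02 (-0.25 to 0.28), Mcm5 by -0.08 (-0.85 to 0.69), Rrm2 by 0.15 (-0.66 to 0.96) and E2f1 by 0.26 (-0.01 to 0.52). Ccnd1 differed by -0.50 (-1.51 to 0.50), Ccnd2 by 0.15 (-0.82 to 1.13), Ccnd3 by 0.19 (-0.48 to 0.85) and Ccne1 by 0.21 (-0.86 to 1.28). Without GFP- replicate 1, 1 member was called, where 1019 of the 22180 genes were. Without both low-pluripotency arrays 0 members were called, where 4.73% of all genes were, 1.23% higher and 3.5% lower.

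Within the colony groups the members varied more than the median gene, and mostly together. The median SD of the 40 members was 0.78 in GFP- colonies and 0.42 in GFP+ colonies, beside 0.245 and 0.217 over all genes, whereas it was 0.0459 in iPS cells and 0.0515 in leukemia, beside 0.0998 and 0.105. More members than not exceeded the median SD of all genes in colonies (38 of 40 in GFP- and 35 of 40 in GFP+), and few did in iPS cells (7) or leukemia (2). Members were not matched to other genes on signal level, which also affects an SD.

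GFP- replicate 1 was the lowest of its group in 21 of 21 mitotic and 14 of 14 S phase genes. It lay below the mean of the other 2 arrays by a median of 1.46 in S phase genes and 1.27 in mitotic genes. In GFP+ colonies, replicate 2 was the highest in 20 of 21 mitotic and 13 of 14 S phase genes, and replicate 3 the lowest in 12 and 11 of them. Several other lists moved with these arrays. The epithelial list averaged 10.49, 8.89 and 7.48 on GFP- replicates 1, 2 and 3, and 10.33, 9.82 and 10.14 on GFP+ replicates 1, 2 and 3. The macrophage and granulocyte list averaged 7.88 on GFP+ replicate 3 and 5.61 to 6.62 on the other colony arrays, and the pan-haematopoietic list averaged 8.60 there and 6.32 to 7.53 on the others, against 8.05 to 8.11 and 10.18 to 10.22 in leukemia. The part of these cells in the members' levels was not tested.

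Outside the 42 genes, further lists of replication and mitosis genes were counted in the same way. Of 41 measured replication genes, 0 were called higher and 4 lower in iPS cells than in leukemia, against 0 and 11 in GFP- colonies and 0 and 20 in GFP+ colonies. The lower calls were 9.76%, 26.8% and 48.8% of the list in that order, beside 11.9%, 12% and 12.3% of all genes. Of 48 measured mitosis genes, 6 were called higher and 3 lower in iPS cells, 3 and 9 in GFP- colonies, and 1 and 11 in GFP+ colonies. Higher calls in iPS cells were 12.5% of that list, beside 12.4% of all genes, and lower calls in GFP- and GFP+ colonies were 18.8% and 22.9%. Their medians in iPS cells were -0.27 for replication and 0.19 for mitosis. Cdc7, the kinase that fires loaded origins, averaged 7.84 ± 0.12 in iPS cells, 7.27 ± 0.54 in GFP- colonies and 7.11 ± 0.12 in GFP+ colonies, against 8.89 ± 0.02 in leukemia, and was called lower in all 3 (limma adjusted p = 0.00508, 0.000393 and 0.000217 in that order). Prim2, a primase subunit, was lower in iPS cells than in leukemia (difference -1.39 ± 0.22, limma adjusted p = 0.00111), and Gins3, of the GINS helicase cofactor, fell by 1.71 ± 0.31 in GFP+ colonies (limma adjusted p = 0.00267).

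Of mitosis genes outside the set, Anln, which organises the cleavage furrow, was 1.27 ± 0.20 higher in iPS cells (limma adjusted p = 0.000868), and Cdc25b, a phosphatase that activates Cdk1, was lower (-1.23 ± 0.35, limma adjusted p = 0.0265). The condensin genes Smc4 and Ncapd2 fell in colonies, Smc4 by 1.39 ± 0.25 in GFP- and 1.60 ± 0.25 in GFP+ colonies (limma adjusted p = 0.00253 and 0.00105), and Ncapd2 by 1.52 ± 0.36 in GFP- and 1.41 ± 0.36 in GFP+ colonies (limma adjusted p = 0.0124 and 0.0171). Against GFP+ colonies, 8 of 48 mitosis genes and 3 of 41 replication genes were higher in iPS cells and 0 lower (16.7% and 7.32%, beside 6.15% of all genes), among them Cep55, which acts in the final cut between daughter cells (1.47 ± 0.38, limma adjusted p = 0.036), Nuf2 of the outer kinetochore (1.18 ± 0.32, limma adjusted p = 0.044), Gins3 (1.09 ± 0.31, limma adjusted p = 0.0495) and thymidine kinase Tk1 (0.91 ± 0.21, limma adjusted p = 0.0238). Tk1 was also 0.89 ± 0.21 higher in iPS cells than in GFP- colonies (limma adjusted p = 0.0399), where Cdc16 of the anaphase-promoting complex was higher as well (0.62 ± 0.15, limma adjusted p = 0.0489). Tk1 fell by 1.64 ± 0.21 in GFP- colonies relative to leukemia (limma adjusted p = 0.000271). Fits of the 2 groups alone did not call Ncapd2 in GFP- colonies against leukemia (limma adjusted p = 0.0629) or Tk1 in iPS cells against GFP+ colonies (0.0581). Cdc16 was not called in such a fit of iPS cells and GFP- colonies (limma adjusted p = 0.127), nor without the 2 low-pluripotency arrays (0.0505).

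Upstream of these genes, 21 CDK, Rb and E2F regulators were measured. Of these, 0 were called higher and 6 lower in iPS cells than in leukemia, 1 higher and 5 lower in GFP- colonies, and 0 higher and 6 lower in GFP+ colonies. The lower calls were 28.6%, 23.8% and 28.6% of the list in that order, beside 11.9%, 12% and 12.3% of all genes. Higher calls were 0%, 4.76% and 0%, beside 12.4%, 9.02% and 9.6% of all genes. E2f2, an activating E2F factor, averaged 6.13 ± 0.14 in iPS cells, 5.99 ± 0.26 in GFP- colonies and 6.09 ± 0.14 in GFP+ colonies, against 8.91 ± 0.05 in leukemia (SD, n = 3 arrays each). Its differences from leukemia of -2.79 in iPS cells, -2.93 in GFP- colonies and -2.83 in GFP+ colonies, each ± 0.14, were the largest of that list (limma adjusted p = 3.12e-07, 2.25e-07 and 2.78e-07 in that order). The E2f2 levels outside leukemia lie near the array medians of 5.76 to 5.82, and whether they are above background was not tested. Cdk6, a partner of the D cyclins, averaged 8.43 ± 0.03 in iPS cells, 7.96 ± 0.76 in GFP- colonies and 8.71 ± 0.73 in GFP+ colonies, against 10.61 ± 0.02 in leukemia, and was called lower in each (limma adjusted p = 0.00199, 0.000682 and 0.00511 in that order). The pocket protein genes Rb1 and Rbl2 were lower in iPS cells than in GFP+ colonies (-0.82 ± 0.19 and -0.87 ± 0.22, limma adjusted p = 0.0268 and 0.033), and Wee1, which inhibits Cdk1, was lower in iPS cells than in GFP- colonies (-1.14 ± 0.27, limma adjusted p = 0.0436). The fit of iPS cells and GFP+ colonies alone did not call Rb1 (limma adjusted p = 0.0519).

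Of the 8 CDK inhibitor genes, 2 were called higher and 3 lower in iPS cells than in leukemia, 3 and 3 in GFP- colonies, and 1 and 3 in GFP+ colonies. Higher calls were 25%, 37.5% and 12.5% of these 8 genes in that order, beside 12.4%, 9.02% and 9.6% of all genes. Lower calls were 37.5% in each comparison, beside 11.9%, 12% and 12.3% of all genes. Cdkn1a, the p21 gene, averaged 10.36 ± 0.04 in iPS cells, 10.57 ± 0.87 in GFP- colonies and 10.87 ± 0.41 in GFP+ colonies, against 7.20 ± 0.04 in leukemia (limma adjusted p = 9.6e-05, 7.12e-05 and 3.9e-05 in that order). Cdkn2c, the p18 gene, fell by 1.93 ± 0.22 in iPS cells and 1.94 ± 0.22 in GFP- colonies (limma adjusted p = 9.72e-05 and 0.000116), and Cdkn1b, the p27 gene, fell by 1.69 ± 0.25 in GFP+ colonies (limma adjusted p = 0.000689). Cdkn2c averaged 5.03 in both of its groups, below the array medians, against 6.96 in leukemia. Whether it is above background was not tested.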

How the data were processed

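The authors deposited log2 values made with RMA, per the submitters' processing notes; the version is not given in the sources used here. RMA makes array distributions nearly equal (medians 5.76 to 5.82), so a shift of most genes would be removed. No detection values were used; precision is limited by the array number. Of 41345 probe sets, 23521 had 1 gene symbol in the platform annotation, 1814 several and 16010 none. The brightest probe set with 1 symbol was kept per gene. Group means over all 12 arrays were estimated with limma 3.58.1 in R 4.3.3. Calls required p under 0.05 after Benjamini-Hochberg adjustment across 22180 genes. Errors of differences are standard errors of that fit, and the code was tested on simulated data.

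The members and lists were chosen with earlier results of these data known. The genes followed in every comparison were Mki67, Top2a, Cdk1, Pcna, Mcm5, Rrm2, E2f1 and the D and E cyclins, with up to 3 called members per role and direction and 2 called genes per further list. Same-numbered arrays of different groups deviated from their group means with correlations from -0.377 to 0.322, so numbers were not treated as pairs. Promoter windows are those of RefSeq for GRCm38.p6, whose symbols matched all 40 measured members.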

Additional observations from a re-analysis of the deposited data

How the results depend on the processing

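None of the 28 called differences followed here by the naming rule changed sign under the alternatives tried. The counts of called members moved with how the spread was estimated, since the colony arrays set it. The fit of the 2 groups alone called 31 for iPS against leukemia, 5 for GFP- and 21 for GFP+ colonies against leukemia, and 11 for iPS against GFP+ colonies. In the same order it called 47.5%, 14.9%, 22.7% and 12.7% of all genes. A spread per group gave 23 for iPS and 23 for GFP+ colonies against leukemia and 16 for iPS against GFP+ colonies, where it called 47%, 26.9% and 19.4% of all genes. A weight per array, whose estimate stopped before converging, gave 25, 22 and 30 for iPS, GFP- and GFP+ against leukemia, 30 and 9 for iPS against GFP+ and GFP- colonies, and 1 between colonies, where it called 47.5%, 39.1%, 36.9%, 31.5%, 19.8% and 5.93% of all genes. Without dim genes, 5 were called for iPS against GFP+ colonies, where 2490 of all genes kept were called. Without both low-pluripotency arrays, which earlier results of these data had placed apart, 21, 16 and 24 were called against leukemia, and 19 and 2 for iPS against GFP+ and GFP- colonies. That fit called 36.4%, 32.9%, 32.6%, 20.4% and 10% of all genes in the same order. Leaving out 1 array at a time gave 5 to 17, 6 to 15 and 7 to 26 against leukemia, 0 to 23 and 0 to 1 for iPS against GFP+ and GFP- colonies, and 0 to 1 between colonies. Calls over all genes in these fits ranged from 3900 to 6865, 3267 to 6033 and 3407 to 6519 against leukemia. They ranged from 597 to 4808 and 251 to 1755 for iPS against GFP+ and GFP- colonies, and 0 to 1019 between colonies. With the replicate block, 10, 7 and 10 members were called against leukemia, where 5104, 4396 and 4606 of all genes were. It called 2 for iPS against GFP+ colonies, where 1915 of all genes were called. It called 0 for iPS against GFP- colonies and 0 between colonies, where 739 and 0 of all genes were called. Of the 28 named calls it kept 24. Trend and robust moderation, cyclic loess and the mean of a gene's probe sets kept 27, 26 and 28 of them. For iPS against GFP+ colonies, higher calls were 48.3% of calls over all genes under cyclic loess, against 59.2% as deposited.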

Other observations

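The probe set of the cyclin E2 gene Ccne2 also carries the symbol Ints8 and was left out of the tests. Its log2 level was 7.51, 7.52 and 7.58 in iPS cells, 7.22, 7.39 and 7.45 on GFP- replicates 1, 2 and 3, and 7.23, 7.56 and 7.57 on GFP+ replicates 1, 2 and 3, against 8.90, 8.91 and 8.82 in leukemia. Every array outside leukemia lay below every leukemia array, whereas Ccne1 was above leukemia on all iPS arrays. Which of the 2 genes the probe set follows was not tested.

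A second, dimmer probe set of Rrm2 had 7.45, 7.32 and 6.96 in iPS cells, against 7.20, 7.42 and 7.29 in leukemia, with overlapping groups, where the one used had no overlap.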
